A study of Mus musculus with 16 samples.

Results

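Interferon-stimulated genes are the genes that cells switch on when an interferon reaches its receptor, and their products sense viral RNA, block viral replication, tag proteins with the ubiquitin-like protein ISG15 or cut peptides for antigen display. The 43 genes described here were taken by symbol as a list of interferon-stimulated and antiviral sensor genes and each was matched by its Ensembl identifier to 1 row of a table of 55573 genes. All 43 passed the filter on low counts, as did 19955 genes in all. They are of interest in these hearts because Trbp, the protein removed from the cardiomyocytes, binds double-stranded RNA.

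The RNA came from ventricles of 16 males in 4 groups of 4, with a single heart in each library. All mice, the controls too, carried Trbp-Flox/Flox alleles and the aMHC-MerCreMer transgene, in which the alpha myosin heavy chain promoter drives a Cre recombinase in cardiomyocytes and tamoxifen switches that Cre on. Trbp-cKO mice had been given tamoxifen at 30 mg/kg once daily on 5 days, starting at 4 weeks of age, while the controls had been given corn oil. Each kind of mouse then had a sham operation or TAC, a ligature that narrows the aorta and loads the left ventricle with pressure, and hearts were taken 8 weeks later from mice 16 weeks old. The loss of Trbp, the exposure to tamoxifen and the activity of Cre cannot be told apart in these groups, and tamoxifen-treated Trbp-Flox/Flox mice without Cre were not analysed here. Cells other than cardiomyocytes keep their Trbp in this model.

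Type I interferons bind the IFNAR receptor, whose kinases JAK1 and TYK2 phosphorylate STAT proteins, among them STAT2. Together with IRF9 these factors bind a short element, the interferon-stimulated response element, in the promoters of their target genes. Trbp helps Dicer to make microRNAs and also restrains PKR, a kinase that double-stranded RNA activates, that stops translation and that is itself an interferon-stimulated gene under the name Eif2ak2.

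The element was searched in the promoters as the letters GAAA, any 2 bases and GAAA again, on both strands, where overlapping matches were joined. RefSeq promoters of build GRCm38.p6, from 250 bases before to 50 bases after the gene start, were at hand for 33 of the 43 genes, and 15 of these (45.5%) held at least 1 match, against 1079 of 27025 genes (3.99%) in the whole table. The matches lay in the promoters of Bst2, Ddx58, Gbp3, Gbp7, Ifih1, Ifit1, Ifit3, Ifit3b, Ifitm3, Isg15, Oas1a, Oas3, Rsad2, Stat2 and Trim30a. Of the genes selected by the rule for named genes, Ifit3 and Oas3 held a match, Ifit2, Trim25 and Psmb9 held none, and Ifi27l2a, Oas2 and Parp14 were not among the 33. A match is a run of letters and not a measured site of binding, and no match says only that these letters are not in this window. Below are the promoters of Ifit3 and Oas3, which the rule selects and which hold a match, and of Isg15 and Gbp7, which were added to show a triple overlapping match and a guanylate-binding gene. Each is written 5′ to 3′ on the strand of the gene with the matches in capitals, and a match on the other strand reads TTTC, any 2 bases and TTTC. Ifit3 lies on the plus strand at chr19:34583279-34583578, Oas3 on the minus strand at chr5:120777610-120777909, Isg15 on the minus strand at chr4:156200769-156201068 and Gbp7 on the plus strand at chr3:142530086-142530385.
Ifit3: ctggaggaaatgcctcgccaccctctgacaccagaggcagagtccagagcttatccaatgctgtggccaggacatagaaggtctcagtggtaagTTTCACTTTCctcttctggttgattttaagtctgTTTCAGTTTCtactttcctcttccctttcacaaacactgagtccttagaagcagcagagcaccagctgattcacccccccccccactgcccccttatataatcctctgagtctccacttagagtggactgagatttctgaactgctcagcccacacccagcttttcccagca
Oas3: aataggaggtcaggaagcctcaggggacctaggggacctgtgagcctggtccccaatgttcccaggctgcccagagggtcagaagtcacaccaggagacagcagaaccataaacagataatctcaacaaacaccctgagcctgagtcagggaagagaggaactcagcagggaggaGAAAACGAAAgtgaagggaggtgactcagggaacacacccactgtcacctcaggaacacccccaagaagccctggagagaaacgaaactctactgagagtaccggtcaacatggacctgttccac
Isg15: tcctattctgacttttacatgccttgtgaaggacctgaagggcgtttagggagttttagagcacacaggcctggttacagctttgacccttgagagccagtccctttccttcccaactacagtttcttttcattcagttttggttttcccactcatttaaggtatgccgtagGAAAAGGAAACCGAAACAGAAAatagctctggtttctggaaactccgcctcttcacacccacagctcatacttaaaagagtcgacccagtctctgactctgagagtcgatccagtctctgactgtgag
Gbp7: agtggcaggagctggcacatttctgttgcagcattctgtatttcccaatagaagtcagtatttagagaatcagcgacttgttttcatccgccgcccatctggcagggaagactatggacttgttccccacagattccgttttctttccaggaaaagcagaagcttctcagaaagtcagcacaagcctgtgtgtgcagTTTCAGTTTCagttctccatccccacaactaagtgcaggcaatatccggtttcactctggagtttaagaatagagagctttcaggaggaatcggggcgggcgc

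Library totals ranged from 45166994 to 68274222 counts. Tarbp2, the gene of Trbp, stood at 30.6, 32.7, 33.3 and 32.4 CPM (read counts scaled to a common, TMM-adjusted library size) in control sham hearts and at 9.09, 8.39, 11.4 and 9.21 in Trbp-cKO sham hearts. After TAC it was 25.2, 21.1, 30.6 and 31.1 in control and 7.14, 8.57, 9.05 and 9.74 in Trbp-cKO hearts, so that every library fitted its genotype label. Control TAC hearts 1 and 2 stood apart from the other control hearts in their cell markers: 7 cardiomyocyte markers summed to 22687 and 17776 CPM there, to 47045 and 47397 in control TAC hearts 3 and 4, and to between 47304 and 51283 in control sham hearts. The medians that involve the control TAC group, and most of the genes described one by one in it, are therefore given also without these hearts. Trbp-cKO TAC heart 4 was low too, at 29280 CPM against 41231 to 48521 in the others of its group. It was kept in the fits without control TAC hearts 1 and 2, so that this exclusion touches only the control side. In bulk tissue, fewer cells of a type and less RNA per cell cannot be told apart.

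The level of the 43 genes differed between hearts of the same group. For each heart, the median difference from the control sham mean over the 43 genes was computed on the log2(CPM + 0.1) scale. It was 0.32, -0.25, -0.17 and 0.06 in control sham hearts, and 0.82, 0.94, -0.07 and 0.11 in control TAC hearts. The control TAC group thus consisted of a high pair, hearts 1 and 2, and a pair at the level of the sham hearts. Heart 2 was among the highest 2 of its group for all 43 genes and heart 1 for 40 of them, against 50.3% and 51.8% of all genes tested. In Trbp-cKO sham hearts the medians were 0.79, 0.19, 0.87 and 0.42, all above 0, with hearts 1 and 3 the highest for 20 and 22 genes, against 28% and 32.1% of all genes. In Trbp-cKO TAC hearts they were -0.10, 0.01, 0.23 and 0.55, and heart 4 was the highest for 36 genes, while it was the highest of its group for 37.7% of all genes. The median standard deviation within a group, in log2 units, was larger for the 43 genes than for all genes tested in every group: 0.30 against 0.16 in control sham, 0.58 against 0.32 in control TAC, 0.37 against 0.21 in Trbp-cKO sham and 0.32 against 0.27 in Trbp-cKO TAC hearts.

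**Figure D1:**
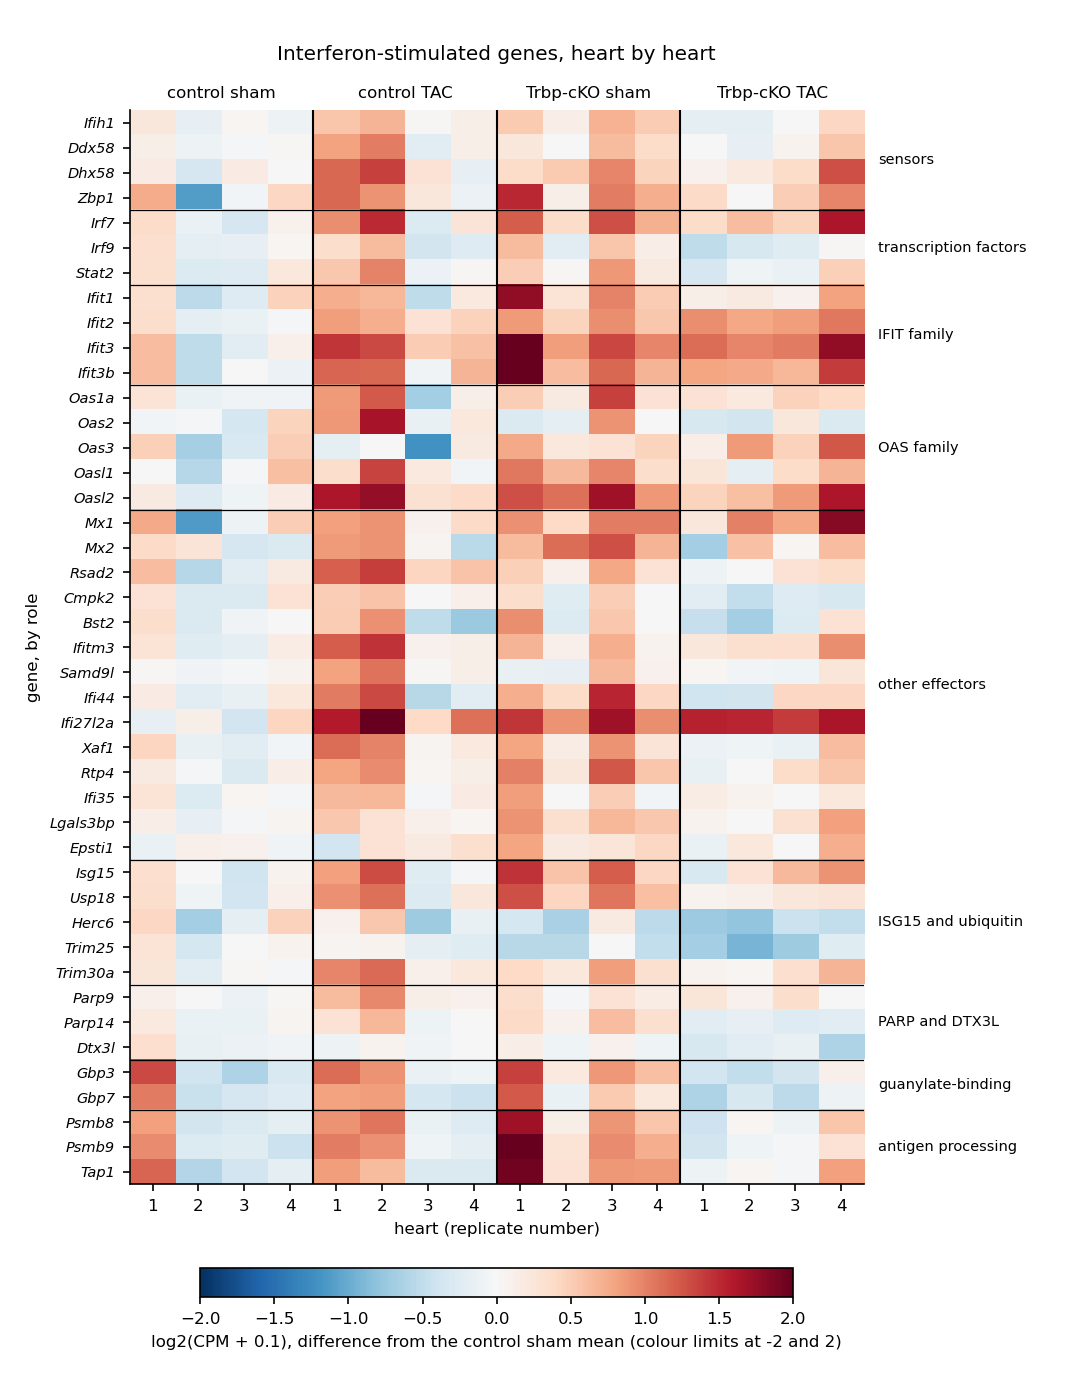
Each row is a gene, ordered by role, and each column a heart, and the color gives log2(CPM + 0.1) minus the mean of the control sham hearts, with limits at -2 and 2. Control TAC hearts 1 and 2, Trbp-cKO sham hearts 1 and 3 and Trbp-cKO TAC heart 4 are the reddest columns of their groups, and control sham heart 1 is red for the guanylate-binding and antigen processing genes.

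To ask what pressure overload alone did, control TAC hearts were compared with control sham hearts. A small number of genes rose: Ifi27l2a, a small mitochondrial protein gene, by a log2 fold change of 1.45, and Ifit2, which binds translation factor eIF3, by 0.58. The log2 fold change was above 0 for 39 of the 43 genes (52.7% of all genes tested), with a median of 0.50 against 0.02 over all genes. An unadjusted p under 0.05 was reached by 14 genes, all higher (15.4% of all genes tested in that direction). An adjusted p of at most 0.05 was reached by 2 genes, both higher (4.09% of all genes), and 1 of them, Ifi27l2a, was called, which required a log2 fold change of 0.8 or more in size as well (2.5% of all genes). The share of genes past the adjusted p was therefore near that of all genes, and the groups did not overlap for 1 gene, Oasl2 (8.64% of all genes). With control TAC hearts 1 and 2 left out, the log2 fold change was above 0 for 21 of the 43 genes (49.9% of all genes). The median then fell to -0.01 and no gene of the 43 was called (0.418% of all genes called higher in that fit). The median was 0.25 without control TAC heart 2 alone. The number called was also 0 without control sham heart 3 (1.13% of all genes called higher in the same fit), was 2 without control sham heart 1 (1.49%) and 3 without Trbp-cKO TAC heart 4 (3.23%), and was 5 without control TAC heart 3 (4.37%) and 5 without control TAC heart 4 (5.08%).

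To ask what the loss of Trbp did without overload, Trbp-cKO sham hearts were compared with control sham hearts. Ifit2, Ifit3 and Ifi27l2a rose, by log2 fold changes of 0.69, 1.43 and 1.27. The log2 fold change was above 0 for 40 of the 43 genes (51.5% of all genes tested), with a median of 0.58 against 0.01 over all genes. An unadjusted p under 0.05 was reached by 19 genes in the higher direction (8.36% of all genes) and by Trim25 in the lower (5.34%). An adjusted p of at most 0.05 was reached by the 3 genes named (1.02% of all genes), and 2 of them, Ifit3 and Ifi27l2a, were called (0.511%). Every Trbp-cKO sham heart exceeded every control sham heart for 13 genes (7.74% of all genes), namely Dhx58, Ifit2, Ifit3, Ifit3b, Oasl2, Mx2, Ifi44, Ifi27l2a, Rtp4, Lgals3bp, Epsti1, Isg15 and Usp18. The median moved between 0.46, without Trbp-cKO sham heart 1, and 0.69, without control sham heart 1. The number called was less stable. It was 0 without any 1 of control sham hearts 2, 3 and 4, Trbp-cKO sham hearts 1, 2, 3 and 4 and Trbp-cKO TAC hearts 1, 2 and 3, was 1 without control TAC heart 1 or 4, and was 3 without control TAC heart 2 or 3 or Trbp-cKO TAC heart 4. In the 16 fits that each left out 1 heart, 0.197% to 0.739% of all genes were called higher. DESeq2 called 5 of the 43 higher (1.07% of all genes by that tool) and edgeR's exact test 10 (1.75%). The quasi-likelihood test called 7 when fitted to these 2 groups only (1.29%) and 0 with no filter (0.216%). With a score of circadian clock genes in the fit the adjusted p of the 3 genes ran from 0.879 to 0.895 at log2 fold changes of 0.70, 1.45 and 1.22, while Tarbp2 itself had -1.50 (adjusted p = 0.607) in that fit. The 43 genes passed an adjusted p of 0.05 in 8 pairs of a gene and a comparison over all 6 comparisons. Of all genes tested, 0.591% to 6.02% passed in the higher direction and 0.456% to 3.92% in the lower, depending on the comparison. With the clock gene score in the fit, 0 of the 8 pairs passed. Few genes of any kind passed in that fit, which called 0 of all 19955 genes in either direction with the deletion in sham hearts and 0.256% higher with TAC in control mice. This comparison shares its control sham hearts with that of TAC in control mice, so the 2 sets of values are not independent.

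After TAC the loss of Trbp was not accompanied by higher levels of most of these genes. Trbp-cKO TAC hearts were here set against control TAC hearts. The log2 fold change was above 0 for 9 of the 43 genes (48.8% of all genes tested) and the median was -0.32, against -0.01 over all genes. No gene reached an adjusted p of at most 0.05 in edgeR's quasi-likelihood test. The unadjusted p was under 0.05 for 8 genes in the lower direction (9.49% of all genes), namely Cmpk2, Trim25, Rsad2, Parp14, Oas2, Samd9l, Dtx3l and Herc6, and for Oas3 in the higher (11.9%). The share of all genes called lower in that test was 0.912%. DESeq2 called 1 of the 43 lower (1.68% of all genes by that tool), and so did edgeR's exact test (0.811% of the genes tested there). All Trbp-cKO TAC hearts were below all control TAC hearts for 5 genes (3.93% of all genes), Rsad2, Cmpk2, Trim25, Parp14 and Dtx3l. Left without control TAC hearts 1 and 2, the log2 fold change was above 0 for 31 of the 43 genes (50.6% of all genes) and the median turned to 0.17. That fit kept Trbp-cKO TAC heart 4, which was also low in cardiomyocyte markers, and without heart 4 alone the median was -0.47. Without control TAC heart 2 alone the median was -0.14, and left without control TAC heart 3 the number of calls was 2 (1.11% of all genes called lower in that fit).

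Within the Trbp-cKO mice, TAC hearts were compared with sham hearts. Parp14, a mono-ADP-ribosyltransferase, fell by 0.57 on the log2 scale, and it was the only gene of the 43 past an adjusted p of 0.05 (3.92% of all genes tested, lower). The log2 fold change was above 0 for 5 of the 43 genes (49.8% of all genes), with a median of -0.36 against -0.00 over all genes. No gene was called by edgeR's quasi-likelihood test (2.34% of all genes called lower), while the unadjusted p was under 0.05 for 12 genes, all lower (10.3% of all genes). DESeq2 called 1 gene lower (2.99% of all genes by that tool) and edgeR's exact test 3 genes lower (3.35%). The quasi-likelihood test called 2 lower without control sham heart 1 (2.18% of all genes in the same fit) and 1 lower without Trbp-cKO sham heart 2 (1.67%). All Trbp-cKO TAC hearts were below all Trbp-cKO sham hearts for Mx2, Usp18, Parp14, Dtx3l and Gbp3 (8.14% of all genes).

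The interaction asks whether the deletion acted differently in TAC and in sham hearts, and it uses all 4 groups, so that it shares hearts with each of the pairwise comparisons, which also share groups with one another. The estimate was below 0 for 42 of the 43 genes, and only that of Oas3 was above 0 (48.8% of all genes were above 0). The median was -0.83 against -0.01 over all genes. The unadjusted p was under 0.05 for 27 genes, all lower (8.2% of all genes), and no gene reached an adjusted p of at most 0.05 in edgeR's quasi-likelihood test, in which 0.426% of all genes were called lower. The smallest adjusted p among the 43 was 0.0812, for Parp14 at -0.81, followed by Usp18 at -1.32 (adjusted p = 0.116). DESeq2 called 4 genes lower (1.49% of all genes by that tool), and the quasi-likelihood test called 1 lower without control TAC heart 3 (0.37%) and 1 lower without control TAC heart 4 (1.15%). With control TAC hearts 1 and 2 both left out the estimate was below 0 for 39 genes (48.6% of all genes were above 0). The median was then -0.38, with Parp14 at -0.52 (adjusted p = 0.170) and Usp18 at -0.72 (adjusted p = 0.383). Averaged over sham and TAC hearts, the deletion effect was above 0 for 27 genes (51.3% of all genes), with a median of 0.19. This median was 0.05 without Trbp-cKO sham heart 1 and 0.31 without control TAC heart 2. Without control TAC hearts 1 and 2 it was 0.43, with 37 genes above 0 (51.1% of all genes) and 4 called (1.22% of all genes called higher in that fit). Ifit2 rose in this average (3.84% of all genes past the adjusted p in the higher direction) and Trim25 fell (1.61% in the lower).

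**Figure D2:**
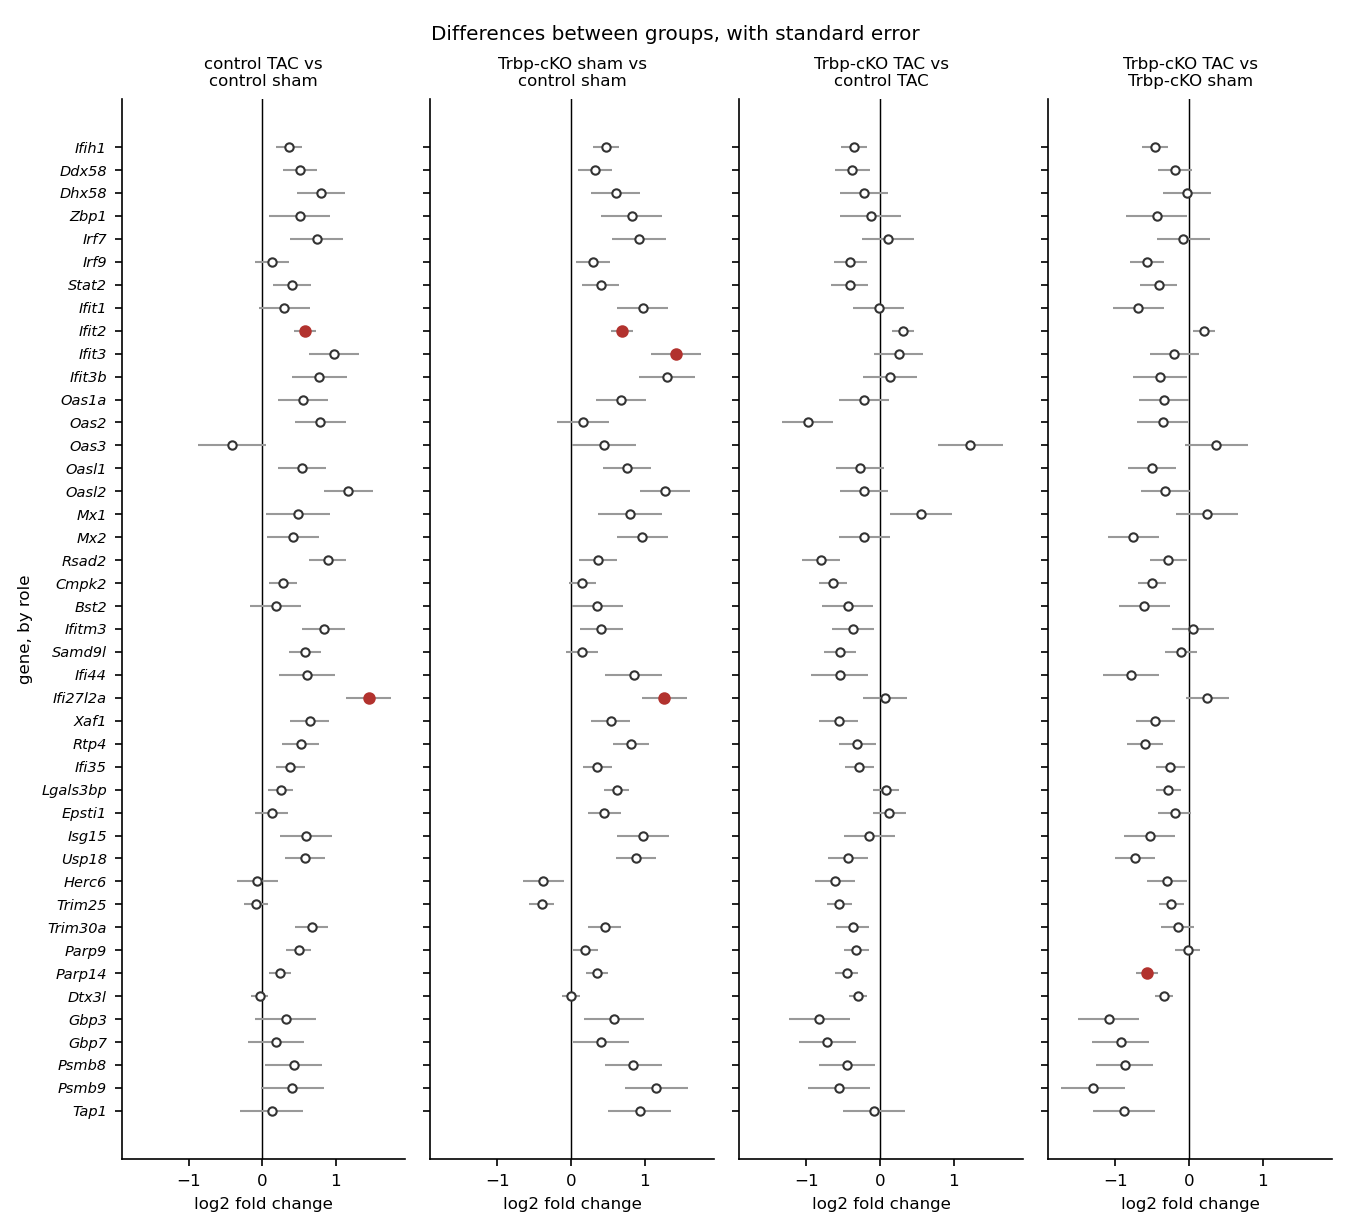
Log2 fold changes of the 43 genes in the 4 pairwise comparisons, with bars of 1 standard error on each side and filled red points where the adjusted p was at most 0.05. Most points lie right of 0 in both comparisons with control sham hearts and left of 0 in both comparisons of Trbp-cKO TAC hearts, and 6 points in all are filled.

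The cytosolic sensors of viral RNA and DNA were Ifih1 (MDA5), Ddx58 (RIG-I), Dhx58 (LGP2), which bind double-stranded RNA, and Zbp1, which binds left-handed nucleic acid. None passed the adjusted p in any comparison. Their log2 fold changes were 0.37 to 0.80 with TAC in control mice, 0.33 to 0.82 with the deletion in sham hearts, -0.38 to -0.13 with the deletion after TAC and -0.46 to -0.03 with TAC in Trbp-cKO mice. Leaving out control TAC hearts 1 and 2 gave -0.09 to 0.07 with TAC in control mice and -0.06 to 0.49 with the deletion after TAC. Dhx58 was at 2.36, 1.64, 2.35 and 2.097 CPM in control sham and at 2.73, 3.04, 4.20 and 2.88 in Trbp-cKO sham hearts. These groups did not overlap, and the adjusted p was 0.461. The transcription factors Irf7, which amplifies the type I interferon response, Irf9 and Stat2 had log2 fold changes of 0.74, 0.13 and 0.40 with TAC in control mice and of 0.92, 0.30 and 0.40 with the deletion in sham hearts. The values with TAC were -0.0093, -0.33 and -0.07 for Irf7, Irf9 and Stat2 without control TAC hearts 1 and 2. Irf7 reached 20.6 CPM in Trbp-cKO TAC heart 4 and 18.8 in control TAC heart 2, against 5.22 to 8.58 in control sham hearts.

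The IFIT family, whose proteins bind viral RNA or translation factors, included Ifit2 and Ifit3, which passed the adjusted p in at least 1 comparison. Ifi27l2a, Trim25 and Parp14 of the other families did so too. Of all genes tested, 0.456% to 6.02% passed in a given direction of a single comparison. A difference between this family and other genes was not tested. Ifit2 (ENSMUSG00000045932, chr19:34550694-34576419, plus strand, GRCm38) was at 15.4, 10.6, 10.9 and 11.7 CPM in control sham, 21.6, 20.0, 14.6 and 16.5 in control TAC, 21.8, 16.5, 22.9 and 17.5 in Trbp-cKO sham, and 23.0, 20.7, 21.6 and 25.0 in Trbp-cKO TAC hearts. Its group means were 12.2 ± 2.23 (SD, n = 4), 18.2 ± 3.18, 19.7 ± 3.15 and 22.6 ± 1.91 CPM. Every Trbp-cKO heart, sham or TAC, was thus above every control sham heart, and control TAC heart 3 alone fell below control sham heart 1. Ifit2 rose 1.497-fold with TAC in control mice (standard error, SE, of 0.15 on the log2 scale, adjusted p = 0.0360, exact permutation p = 0.0571), 1.62-fold with the deletion in sham hearts (SE 0.15, adjusted p = 0.0325, exact permutation p = 0.0286, the smallest that 4 against 4 allow) and 1.42-fold in the mean deletion effect (SE 0.11, adjusted p = 0.0130). The mean deletion effect held in all 16 fits that each left out 1 heart, and with the clock gene score in the fit it was 0.50 (adjusted p = 0.232). The rise with TAC was lost without control sham heart 2, 3 or 4 or control TAC heart 1 or 2 (adjusted p of up to 0.122), and the rise in sham hearts without control sham heart 2, 3 or 4 or Trbp-cKO sham heart 1, 3 or 4 (up to 0.110). Without control TAC hearts 1 and 2 the log2 fold change with TAC was 0.36 (adjusted p = 0.454), and with the clock gene score it was 0.58 (adjusted p = 0.205).

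Ifit3 (ENSMUSG00000074896, chr19:34583531-34588731, plus strand) was at 6.05, 2.72, 3.36 and 4.19 CPM in control sham and at 10.7, 9.86, 5.60 and 5.90 in control TAC hearts. Trbp-cKO sham hearts had 19.1, 7.09, 9.98 and 7.81 CPM, and Trbp-cKO TAC hearts 8.61, 7.76, 8.17 and 13.6 CPM. All 8 Trbp-cKO hearts were above all control sham hearts, and Trbp-cKO sham heart 1 was the highest of the 16. With the deletion in sham hearts Ifit3 rose 2.69-fold (log2 fold change 1.43, SE 0.34, adjusted p = 0.0475, exact permutation p = 0.0286). With TAC in control mice its log2 fold change was 0.97 (SE 0.34, adjusted p = 0.0916), and with the deletion after TAC it was 0.25 (SE 0.33, adjusted p = 0.703). Without control TAC hearts 1 and 2 these values were 0.50 (adjusted p = 0.773) and 0.72 (adjusted p = 0.364). The call in sham hearts held in 6 of the 16 fits that left out 1 heart, namely those without control sham heart 1, without any 1 control TAC heart or without Trbp-cKO TAC heart 4, and the adjusted p of the others was up to 0.15, with a log2 fold change of 1.02 without Trbp-cKO sham heart 1. Of the 75-base stretches of the Ifit3 transcripts 41.1% are also found elsewhere, mainly in Ifit3b, and 35.7% of those of Ifit3b, mainly in Ifit3, so counts could be divided between the copies and their values are uncertain. Ifit3b had a log2 fold change of 1.303 in sham hearts (adjusted p = 0.103) without overlap between the groups, and Ifit1 of 0.97 (adjusted p = 0.200). The median difference of the 4 IFIT genes from the control sham mean was 0.86, 0.77, 0.75 and 1.23 in the Trbp-cKO TAC hearts, where that of the guanylate-binding genes was -0.50, -0.41, -0.44 and 0.01. For the guanylate-binding genes the control sham mean rested on heart 1, at 1.18, while control sham hearts 2, 3 and 4 were at -0.42, -0.48 and -0.28, the level of the first 3 Trbp-cKO TAC hearts.

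The OAS family is known for its synthetases of the second messenger 2-5A, which activates the ribonuclease RNase L. Oas2 (ENSMUSG00000032690, chr5:120730333-120749853, minus strand) was at 15.7, 15.7, 12.6 and 22.2 CPM in control sham, 29.7, 51.1, 14.6 and 18.8 in control TAC, 13.2, 14.2, 30.4 and 16.1 in Trbp-cKO sham and 13.0, 12.5, 19.0 and 13.2 in Trbp-cKO TAC hearts. It showed the lowest log2 fold change of the 43 genes with the deletion after TAC, at -0.98 (SE 0.35, adjusted p = 0.114, exact permutation p = 0.0857). The groups overlapped, and the value was -0.55 without control TAC heart 2 and -0.22 without control TAC hearts 1 and 2. Oas3 (ENSMUSG00000032661, chr5:120753098-120777661, minus strand) was the least abundant of the 43 per length, at 0.0528 CPM per kb of exon over all hearts and 358 counts in total. Its CPM was 0.431, 0.142, 0.211 and 0.441 in control sham, 0.236, 0.285, 0.0662 and 0.333 in control TAC, 0.545, 0.342, 0.366 and 0.422 in Trbp-cKO sham and 0.319, 0.592, 0.425 and 0.810 in Trbp-cKO TAC hearts. It was the gene with the highest log2 fold change of the 43 with the deletion after TAC, 1.23 (SE 0.45, adjusted p = 0.121, exact permutation p = 0.0571), and the lowest with TAC in control mice, -0.41 (SE 0.46, adjusted p = 0.583). A single control TAC heart, heart 4, reached above a Trbp-cKO TAC heart. Without control TAC hearts 1 and 2 these 2 values were 1.42 (adjusted p = 0.221) and -0.61 (adjusted p = 0.849). The value with TAC in control mice was -0.10 without control TAC heart 3 alone and -0.65 without control TAC heart 4 alone. Oas3 also had the highest log2 fold change of the 43 with TAC in Trbp-cKO mice, 0.37 (SE 0.42, adjusted p = 0.679). This value was 0.11 without Trbp-cKO TAC heart 4 and 0.55 without Trbp-cKO TAC heart 1.

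Oasl2 (ENSMUSG00000029561, chr5:114896936-114912234, plus strand), chosen for description after its values were seen, was at 7.37, 5.42, 6.15 and 7.26 CPM in control sham, 20.1, 22.3, 8.02 and 8.48 in control TAC, 16.04, 14.1, 21.3 and 11.9 in Trbp-cKO sham and 8.91, 9.94, 11.8 and 20.1 in Trbp-cKO TAC hearts. All 12 hearts of the other groups were above the control sham hearts. The log2 fold changes were 1.17 with TAC (SE 0.33, adjusted p = 0.0502) and 1.28 with the deletion in sham hearts (SE 0.34, adjusted p = 0.0720), each with an exact permutation p of 0.0286. Neither passed in edgeR's quasi-likelihood test with all 16 hearts. Of 26 alternatives, Oasl2 passed in 7 with TAC and in 8 with the deletion in sham hearts. The adjusted p of the latter was up to 0.879, with the clock gene score. The interaction was -1.49 (SE 0.47, adjusted p = 0.142). Without control TAC hearts 1 and 2 the log2 fold change with TAC was 0.33 (adjusted p = 0.804) and the interaction -0.66 (adjusted p = 0.504). For Oas1a, 47.6% of the 75-base stretches are shared, mainly with Oas1g, and its values are uncertain for that reason.

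Ifi27l2a (ENSMUSG00000079017, chr12:103442167-103443680, minus strand) led the other antiviral effectors. Its CPM was 3.69, 4.54, 3.18 and 5.62 in control sham, 12.6, 19.2, 5.50 and 9.07 in control TAC, 11.4, 7.87, 13.7 and 8.04 in Trbp-cKO sham and 12.3, 12.1, 11.2 and 13.1 in Trbp-cKO TAC hearts. Control TAC heart 3 alone, at 5.50, lay within the range of the control sham hearts. It rose 2.73-fold with TAC in control mice (log2 fold change 1.45, SE 0.30, adjusted p = 0.0141, exact permutation p = 0.0571) and 2.40-fold with the deletion in sham hearts (log2 fold change 1.27, SE 0.30, adjusted p = 0.0480, exact permutation p = 0.0286). With TAC in Trbp-cKO mice the log2 fold change was 0.25 (SE 0.30, adjusted p = 0.693), and the Trbp-cKO TAC hearts spread by an SD of 0.789 CPM around a mean of 12.2. The rise with TAC missed the threshold in 1 of the 16 fits without 1 heart, that without control sham heart 3 (adjusted p = 0.0511), was 0.77 without control TAC hearts 1 and 2 (adjusted p = 0.230) and was 1.42 with the clock gene score in the fit (adjusted p = 0.146). The rise in sham hearts held in 3 of the 16, those without control TAC heart 2, control TAC heart 3 or Trbp-cKO TAC heart 4, and reached an adjusted p of up to 0.158, without control sham heart 3.

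Rsad2, whose product viperin makes a chain-terminating nucleotide, and Cmpk2, its neighbour on chromosome 12 that makes the nucleotide precursor, were lower in all Trbp-cKO TAC hearts than in all control TAC hearts. Rsad2 was at 28.6, 32.7, 16.9 and 18.7 CPM in control TAC and 11.6, 12.4, 15.3 and 16.1 in Trbp-cKO TAC hearts, and its log2 fold change was -0.80 (SE 0.25, adjusted p = 0.0776). In control sham hearts it was at 19.1, 8.40, 10.7 and 14.2 CPM. Its log2 fold change with TAC in control mice was 0.89 (adjusted p = 0.0502), and control sham heart 1 lay above control TAC hearts 3 and 4. Cmpk2 had a log2 fold change of -0.64 with the deletion after TAC (SE 0.19, adjusted p = 0.0644). Without control TAC hearts 1 and 2 the values with the deletion after TAC were -0.37 for Rsad2 (adjusted p = 0.491) and -0.38 for Cmpk2 (adjusted p = 0.362), and that of Rsad2 with TAC in control mice was 0.45 (adjusted p = 0.628). Rsad2 was chosen for description after its values were seen, and so was Cmpk2. The dynamin-like Mx1 and Mx2, the tetherin Bst2, the membrane protein Ifitm3, which blocks viral entry, and Samd9l, Ifi44, Xaf1, Rtp4, Ifi35, Lgals3bp and Epsti1 passed in no comparison. With the 3 named above, the 14 effectors had log2 fold changes of 0.13 to 1.45 with TAC in control mice and of 0.15 to 1.27 with the deletion in sham hearts. With the deletion after TAC 10 of the 14 were below 0 (-0.80 to 0.55), and with TAC in Trbp-cKO mice 11 were (-0.79 to 0.25). Once control TAC hearts 1 and 2 were left out, the range was -0.64 to 0.77 with TAC in control mice, with 11 of 14 above 0, and -0.38 to 0.93 with the deletion after TAC, with 9 above 0. Ifitm3 was the most abundant of the 43 genes per length, at 117 CPM per kb, and reached 133 and 156 CPM in control TAC hearts 1 and 2, against 48.1 to 69.0 in control sham hearts and 61.0 and 62.3 in control TAC hearts 3 and 4.

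Isg15 encodes the ubiquitin-like modifier itself, and Usp18 removes it from proteins. Isg15 was at 3.11, 2.47, 1.83 and 2.57 CPM in control sham, 4.42, 6.18, 2.07 and 2.39 in control TAC, 6.88, 3.71, 5.81 and 3.31 in Trbp-cKO sham and 1.97, 3.04, 3.89 and 4.65 in Trbp-cKO TAC hearts. Trbp-cKO sham hearts did not overlap with control sham hearts, and the log2 fold change of 0.98 had a SE of 0.35 and an adjusted p of 0.202. Usp18 had 0.88 (adjusted p = 0.130) in the same comparison and -0.74 (adjusted p = 0.109) with TAC in Trbp-cKO mice. Trim25 (ENSMUSG00000000275, chr11:88999376-89020293, plus strand), the ubiquitin ligase that activates RIG-I, behaved otherwise. Its CPM was 76.9, 50.2, 63.9 and 67.1 in control sham, 66.1, 67.2, 56.5 and 53.7 in control TAC, 43.4, 43.6, 63.5 and 45.3 in Trbp-cKO sham and 40.0, 33.3, 39.1 and 53.7 in Trbp-cKO TAC hearts. All Trbp-cKO TAC hearts were below all control TAC hearts, and 3 of 4 Trbp-cKO sham hearts were below all control sham hearts. Over both operations Trim25 fell by 0.47 in log2 units (SE 0.12, adjusted p = 0.0304), with -0.40 in sham hearts (adjusted p = 0.297) and -0.55 after TAC (adjusted p = 0.0701). This fall held in 8 of the 16 fits without 1 heart. It missed the threshold without control sham heart 1 or 4, Trbp-cKO sham heart 1, 2 or 4 or Trbp-cKO TAC heart 1, 2 or 3, with an adjusted p of up to 0.0692. With scaling by library size only it was -0.35 (adjusted p = 0.0939), without control TAC hearts 1 and 2 it was -0.41 (adjusted p = 0.0637) and with the clock gene score -0.40 (adjusted p = 0.458). Herc6, the ISG15 ligase in mice, had -0.49 in the mean deletion effect (adjusted p = 0.161), and Trim30a passed nowhere.

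Parp14 (ENSMUSG00000034422, chr16:35832874-35871544, minus strand) was at 38.0, 30.3, 30.2 and 34.5 CPM in control sham, 40.5, 52.5, 31.0 and 33.0 in control TAC, 43.1, 35.0, 50.6 and 41.2 in Trbp-cKO sham and 28.7, 29.5, 27.8 and 28.5 in Trbp-cKO TAC hearts. The Trbp-cKO TAC hearts were below all 12 others and spread by an SD of 0.700 CPM, against 3.73 to 9.75 in the other groups. Against Trbp-cKO sham hearts the fall was 0.57 in log2 units (SE 0.15, adjusted p = 0.0258, exact permutation p = 0.0286), and against control TAC hearts the log2 fold change was -0.45 (SE 0.15, adjusted p = 0.0934). The fall held in 10 of the 16 fits without 1 heart and missed the threshold without Trbp-cKO sham heart 1, 3 or 4 or Trbp-cKO TAC heart 1, 3 or 4 (adjusted p of up to 0.0791). With the clock gene score it was -0.51 (adjusted p = 0.487). Without control TAC hearts 1 and 2 the value against control TAC hearts was -0.17 (adjusted p = 0.525). Exons of Parp14 also overlap those of Gm49730 on the same strand. The partners Parp9 and Dtx3l, an ADP-ribosyltransferase and a ubiquitin ligase that work as a complex, passed nowhere. Exons of Parp9 and Dtx3l overlap on opposite strands, and no use of strand in the counting is stated, so reads of their shared bases cannot be told apart.

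**Figure D3:**
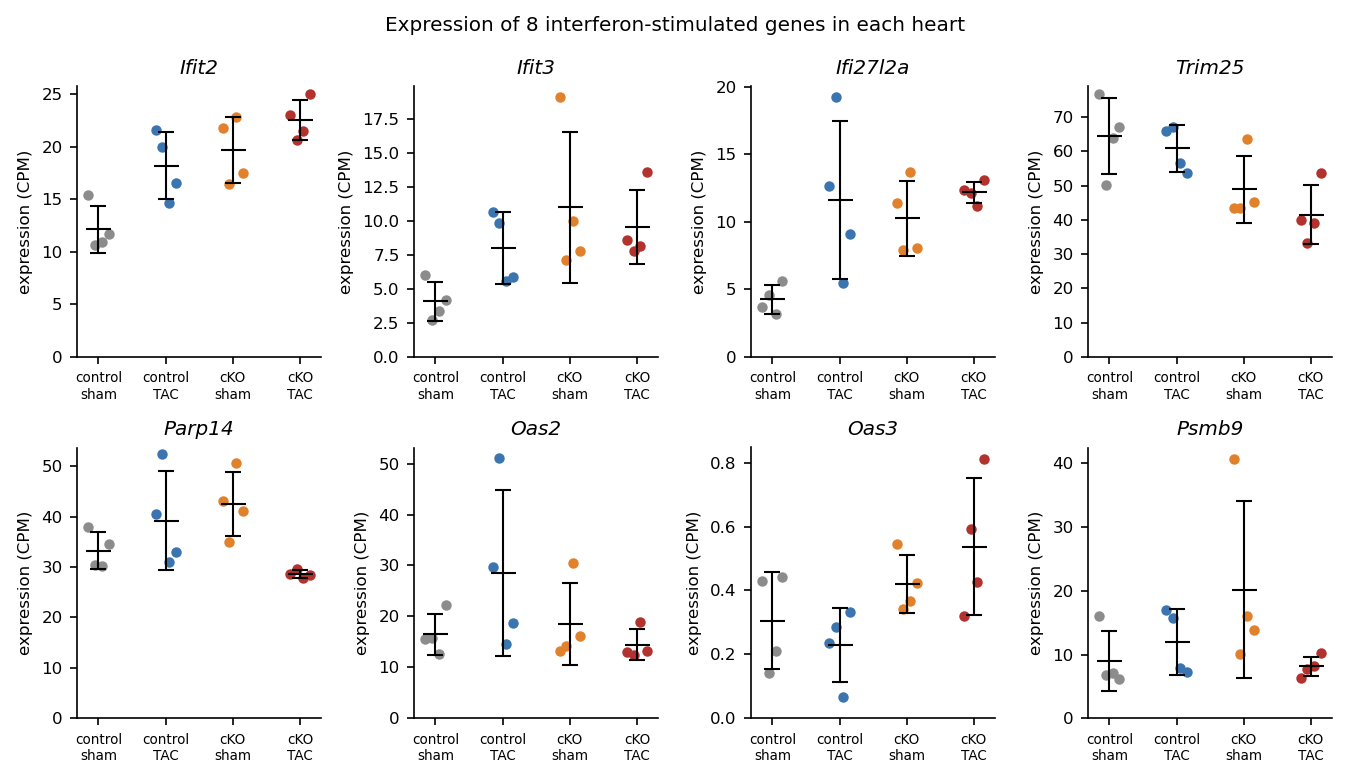
CPM of the 8 genes selected by the rule for named genes, with a point for each heart, a long bar for the group mean and short bars 1 SD above and below it (n = 4). Ifit2, Ifit3 and Ifi27l2a lie above the control sham hearts in all 8 Trbp-cKO hearts, Trbp-cKO TAC hearts are the lowest for Parp14, and the panel of Psmb9 shows Trbp-cKO sham heart 1 at 40.7 CPM.

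The guanylate-binding proteins Gbp3 and Gbp7, GTPases that attack membranes of intracellular microbes, and the antigen processing genes Psmb8, Psmb9 and Tap1 were high in 1 or 2 hearts of some groups. Psmb8 and Psmb9 encode immunoproteasome subunits, and Tap1 carries peptides into the endoplasmic reticulum. Psmb9 (ENSMUSG00000096727, chr17:34181987-34187764, minus strand) was at 16.04, 6.82, 7.04 and 6.13 CPM in control sham, 17.1, 15.8, 7.85 and 7.21 in control TAC, 40.7, 10.1, 16.1 and 13.8 in Trbp-cKO sham and 6.40, 7.80, 8.15 and 10.2 in Trbp-cKO TAC hearts. Each of the first 3 groups held 1 or 2 hearts far above its others, and no Trbp-cKO TAC heart did so. Psmb9 had the lowest log2 fold change of the 43 with TAC in Trbp-cKO mice, -1.30 (SE 0.43, adjusted p = 0.0692, exact permutation p = 0.0571), and -0.71 without Trbp-cKO sham heart 1. Psmb9 passed in this comparison in 5 of 26 alternatives, namely DESeq2, edgeR's exact test, and the fits without control sham heart 1, without Trbp-cKO sham heart 2 and without control TAC hearts 1 and 2 (adjusted p = 0.0127 at the lowest, in the exact test, and 0.522 at the highest, with the clock gene score). Gbp7, chosen for description after its values were seen, was at 55.4, 19.6, 21.2 and 22.5 CPM in control sham, 47.0, 47.9, 20.96 and 19.8 in control TAC, 62.7, 24.5, 38.7 and 31.1 in Trbp-cKO sham and 17.4, 21.4, 18.6 and 25.1 in Trbp-cKO TAC hearts. Control sham heart 1 was thus above both high control TAC hearts and stood alone in its group. For Gbp3 all Trbp-cKO TAC hearts were below all Trbp-cKO sham hearts (log2 fold change -1.09, SE 0.42, adjusted p = 0.121). In the quasi-likelihood test with all 16 hearts, none of these 5 genes passed the adjusted p in any comparison. Of 26 alternatives, Gbp7 passed in 1 with TAC in Trbp-cKO mice, edgeR's exact test (adjusted p = 0.0115, and up to 0.744 in the others). Exons of Psmb9 and Tap1 overlap on opposite strands, with the same limit as for Parp9 and Dtx3l.

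Of 46 other genes of the interferon pathway, 36 passed the filter on low counts. Of these, 2 rose and none fell with TAC in control mice (4.09% of all genes passed in the higher direction, so that 2 of 36 is near the background). With the deletion in sham hearts 2 fell (0.666% of all genes passed in the lower direction), 1 of them Tarbp2 itself. With the deletion after TAC 1 fell (1.65%), again Tarbp2, and with TAC in Trbp-cKO mice 1 fell, Irf1 (3.92%). The 10 interferon genes listed were not among the genes tested. No count in any heart was found for 8 of them, which allows up to 0.00313 CPM at 3 counts over all hearts, Ifng had 20 counts in 6 hearts and Ifne had 1. None of the 6 receptor genes passed in any comparison. Irf1, an interferon-induced transcription factor, was at 37.2, 25.8, 41.5 and 31.3 CPM in Trbp-cKO sham and at 21.9, 23.0, 22.7 and 21.2 in Trbp-cKO TAC hearts, which did not overlap. It fell by 0.61 in log2 units (SE 0.18, adjusted p = 0.0422) and held in 7 of the 16 fits without 1 heart (adjusted p up to 0.122). With the clock gene score it was -0.57 (adjusted p = 0.529).

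Ikbke, a kinase that activates IRF3 and IRF7, rose with TAC in control mice by a log2 fold change of 0.83 (SE 0.22, adjusted p = 0.0382), with 1.88, 2.22, 1.67 and 2.06 CPM in control sham and 4.00, 4.44, 2.68 and 2.86 in control TAC hearts. It was 0.50 without control TAC hearts 1 and 2 (adjusted p = 0.513), 0.98 with the clock gene score (adjusted p = 0.168), and it held in 8 of the 16 fits without 1 heart. Socs3, which inhibits JAK kinases, fell with the deletion in sham hearts by 1.43 in log2 units (SE 0.32, adjusted p = 0.0377). Its CPM ranged from 8.63 to 34.2 in control sham hearts, with the highest in heart 1, and from 6.55 to 8.48 in Trbp-cKO sham hearts, and without control sham heart 1 the fall was 1.03 (adjusted p = 0.107). With the clock gene score it was -0.95 (adjusted p = 0.913).

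Eif2ak2 encodes PKR, which Trbp restrains, and Prkra encodes PACT, which activates PKR. Eif2ak2 was at 11.6, 10.8, 10.2 and 10.7 CPM in control sham, 14.98, 15.5, 13.9 and 11.95 in control TAC, 13.6, 14.2, 15.9 and 13.7 in Trbp-cKO sham and 12.2, 11.8, 13.3 and 15.3 in Trbp-cKO TAC hearts. All 12 hearts of the other groups were above all control sham hearts. Eif2ak2 rose 1.299-fold with TAC in control mice (log2 fold change 0.38, SE 0.10, adjusted p = 0.0428, exact permutation p = 0.0286). With the deletion in sham hearts its log2 fold change was 0.41 (SE 0.10, adjusted p = 0.0621), and after TAC it was -0.10 (SE 0.10, adjusted p = 0.629). The rise with TAC held in 5 of the 16 fits without 1 heart, with an adjusted p of up to 0.131, was 0.25 without control TAC hearts 1 and 2 (adjusted p = 0.470) and was 0.52 with the clock gene score (adjusted p = 0.128). Prkra passed in no comparison, with log2 fold changes between -0.18 and 0.06 in the 4 pairwise comparisons and 8.84 to 14.9 CPM over all hearts. Transcript levels do not measure the activity of either protein.

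Markers of other cell types moved with some of these values. In control TAC hearts 1 and 2, in which the 43 genes were high, 6 endothelial markers summed to 1399 and 1540 CPM, against 753 and 721 in hearts 3 and 4 and 701 to 817 in control sham hearts. All 6 endothelial markers were above 0 with TAC in control mice, and 1 passed, Egfl7 (log2 fold change 1.16, and 0.33 without hearts 1 and 2). All 7 cardiomyocyte markers were below 0 and none passed. With the deletion after TAC all 6 endothelial markers were below 0 (48.8% of all genes were above 0) and none passed. The endothelial sums of Trbp-cKO TAC hearts 1 to 4 were 714, 622, 735 and 1068 CPM, against the 753 and 721 of control TAC hearts 3 and 4. In Trbp-cKO sham heart 3, also high, the endothelial sum was 1140 CPM and the cardiomyocyte sum 39819. Trbp-cKO sham heart 1, equally high, had the lowest endothelial sum of its group, 647 CPM, and the highest macrophage sum of all hearts, 471 CPM over 9 markers. Macrophage sums were otherwise 288 to 368 CPM in the groups, and no macrophage marker passed in any comparison. Trbp-cKO TAC heart 4, the highest of its group, had an endothelial sum of 1068 CPM and a cardiomyocyte sum of 29280. Fibroblast markers summed to 647 to 738 CPM in control sham, 823 to 1376 in control TAC, 832 to 1058 in Trbp-cKO sham and 1275 to 2007 in Trbp-cKO TAC hearts, with no overlap between control sham hearts and the hearts of the other 3 groups. Of the 6 fibroblast markers, Lum, Col1a1 and Col1a2 passed with TAC in control mice. With the deletion in sham hearts 5 of the 6 were above 0 without overlap between the groups, and Lum passed (log2 fold change 0.74, adjusted p = 0.0029). Col1a1 and Col1a2, which encode collagen I, passed with the deletion after TAC (1.00 and 0.92) and with TAC in Trbp-cKO mice (1.74 and 1.43). The fibroblast list as a whole did not rise there. In each of these 2 comparisons 3 of its 6 markers were above 0 and 3 below, with medians of 0.02 and 0.07. The 10 lymphocyte markers summed to 2.40 to 6.03 CPM and none passed, and Cd3d, Cd8a and Nkg7 were at 0 in at least 1 heart, as were the neutrophil markers Retnlg and Mmp8. The 5 neutrophil markers summed to 5.36 to 11.0 CPM in control sham hearts and to 4.21 to 5.23 in Trbp-cKO sham hearts, without overlap. The 3 of them that were tested had log2 fold changes of -1.55 (S100a8), -1.78 (S100a9) and -0.43 (Csf3r) with the deletion in sham hearts. Each had an unadjusted p under 0.05 (5.34% of all genes, lower) and no overlap between the groups (6.96%), and none passed the adjusted p there. With the deletion after TAC 2 of the 3 were above 0 and 1 below (-0.38 to 1.24). With TAC in Trbp-cKO mice 2 were also above 0 and 1 below (-0.03 to 1.33), and none passed in either comparison. In the mean deletion effect Csf3r fell by 0.41 in log2 units (adjusted p = 0.0341). The 5 markers of plasmacytoid dendritic cells, which make interferon, summed to 266 and 288 CPM in control TAC hearts 1 and 2, against 150 and 128 in hearts 3 and 4 and 122 to 138 in control sham hearts. The sum was 229 CPM in Trbp-cKO TAC heart 4, against 131 to 136 in the others of its group, and 174 in Trbp-cKO sham heart 3, against 125 to 144. Most of each sum was Tcf4, at 98.0 to 253 CPM, which other cells also express. With the deletion after TAC 2 of the 5 were above 0 and 3 below. Siglech, 1 of these markers, fell by 0.52 on the log2 scale with the deletion after TAC (SE 0.13, adjusted p = 0.0351), the only one to pass there, and its log2 fold change was -0.34 without control TAC hearts 1 and 2 (adjusted p = 0.221). The part of these cell types in the levels of the 43 genes was not tested.

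**Figure D4:**
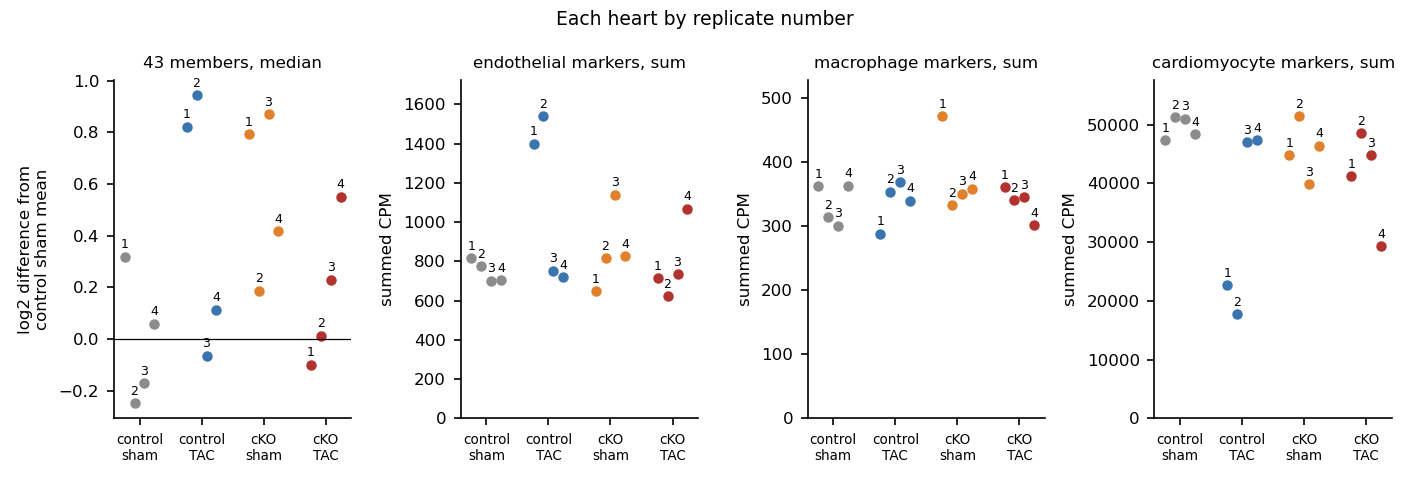
For each heart, labelled by its number within the group, the first panel gives the median log2 difference of the 43 genes from the control sham mean, and the other panels the summed CPM of endothelial, macrophage and cardiomyocyte markers. Control TAC hearts 1 and 2 are high in the first and second panels and lowest in the last, while Trbp-cKO sham heart 1 is high in the first panel and in that of the macrophage markers.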

How the data were processed

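Poly(A)-selected RNA of 16 mouse hearts was sequenced. Per the submitters' processing notes, reads were trimmed with cutadapt 2.3, checked with FastQC, aligned to GRCm38 with HISAT2 2.1.0 and assembled with StringTie 1.3.4. The authors deposited read counts per gene derived from StringTie coverage, and the read length used in that conversion is not given in the sources used here, so the scale of the counts is uncertain by a common factor. The deposited table held 55573 genes, of which 55394 matched GENCODE M21.

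Counts were scaled by TMM and filtered with filterByExpr, and 1 quasi-likelihood model (edgeR 4.0.16 in R 4.3.3, robust) was fitted to all 16 hearts, with 6 contrasts and Benjamini-Hochberg adjustment over all 19955 genes tested. A gene passed at an adjusted p of at most 0.05 and was called if its absolute log2 fold change was also at least 0.8. Where no other tool or fit is named, passing refers to this model with all 16 hearts. Two-sided exact permutation tests of CPM used all 70 assignments of 4 against 4 hearts, for which the smallest p is 0.0286. The total count limits the precision of a heart and ran from 45166994 to 68274222. Since each library was a single heart, p-values weigh a difference between groups against the spread between hearts. In the model all 4 groups share 1 estimate of that spread for a gene. The model was tested on simulated data, but the outcome is not reported here and no value given here rests on it.

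A gene of the pathway list is not reported here. The members, gene lists and tests were chosen with earlier results of these data known. Described heart by heart were members past an adjusted p of 0.05 in any comparison and the largest rise and fall of each pairwise comparison; other members described so were chosen after their values were seen. Alternatives were library-size scaling, DESeq2 1.42.0, edgeR's exact test, fits of only the groups compared, other filters and thresholds, halved counts, a replicate block, a clock gene score and leaving out each heart, and, chosen after seeing the data, leaving out control TAC hearts 1 and 2 together.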

Additional observations from a re-analysis of the deposited data

Results flagged for a closer look

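The items examined were 19 in each of 4 groups: single genes and the median log2 difference of the 43 genes from the control sham mean. In 8 of the 76 groups of 4 hearts, the gap between the farthest heart and its neighbour, as a share of the range of the group, exceeded the 95% critical value of Dixon's test, which chance exceeds in about 1 in 20 groups. Control sham heart 1 stood apart for Gbp7, at 55.4 CPM against 19.6 to 22.5 in the other control sham hearts, and for Psmb9, at 16.04 against 6.13 to 7.04. Trbp-cKO sham heart 1 stood apart for Prkra, at 14.9 CPM against 12.03 to 12.4. Trbp-cKO sham heart 3 stood apart for Oas2, at 30.4 CPM against 13.2 to 16.1, for Trim25, at 63.5 against 43.4 to 45.3, and for Ikbke, at 3.56 against 2.14 to 2.27. In the Trbp-cKO TAC group, heart 3 stood apart for Oas2, at 19.0 CPM against 12.5 to 13.2, and heart 4 for Ifit3, at 13.6 against 7.76 to 8.61.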

How the results depend on the processing

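In the main test 1 gene of the 43 was called with TAC in control mice, 2 with the deletion in sham hearts and 0 in the other comparisons. DESeq2 called 5 higher with TAC (3.63% of all genes in that direction by the same tool), 5 higher with the deletion in sham hearts (1.07%), 1 lower with the deletion after TAC (1.68%), 1 lower with TAC in Trbp-cKO mice (2.99%), 4 lower in the interaction (1.49%) and 1 higher in the mean deletion effect (1.2%). The exact test of edgeR called 3 higher with TAC (3.12%), 10 higher with the deletion in sham hearts (1.75%), 1 lower with the deletion after TAC (0.811%) and 3 lower with TAC in Trbp-cKO mice (3.35%). Fits of only the groups compared called 0 with TAC (1.03% of all genes higher), 7 higher with the deletion in sham hearts (1.29%) and 1 lower with TAC in Trbp-cKO mice (2.51%). With TAC in control mice the count was 3 under a filter of 1 CPM in 4 hearts (3.23% of all genes), 3 with halved counts (2.92%), 2 with no fold threshold (4.09%) and 0 with the clock gene score (0.256%). With the deletion in sham hearts it was 0 with no filter (0.216%) and 0 with the clock gene score, where 0 of all genes were called. With no fold threshold it was 1 lower with TAC in Trbp-cKO mice (3.92%) and 2 in the mean deletion effect, 1 higher (3.84%) and 1 lower (1.61%), which also had 2 higher with scaling by library size only (1.7%). That scaling moved the median of all genes to 0.11 with the deletion in sham hearts, 0.13 after TAC and 0.12 in the mean. With control TAC hearts 1 and 2 both left out, chosen after seeing the data, the median of the 43 genes turned to -0.0093 with TAC in control mice and to 0.17 with the deletion after TAC, and the counts were 0 with TAC (0.418% of all genes higher), 4 higher with the deletion in sham hearts (0.855%), 1 lower with TAC in Trbp-cKO mice (3.08%) and 4 higher in the mean deletion effect (1.22%).

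Leaving out each heart in turn gave counts of 0 to 5 with TAC, 0 to 3 with the deletion in sham hearts, 0 to 2 with the deletion after TAC, 0 to 2 with TAC in Trbp-cKO mice, 0 to 1 in the interaction and 0 to 1 in the mean deletion effect. The shares of all genes called in these directions were 0.945% to 5.08%, 0.197% to 0.739%, 0.373% to 1.69%, 1.59% to 2.67%, 0.0987% to 1.15% and 0.706% to 0.91% in the same order. The medians kept their sign in these fits, at 0.25 to 0.66, 0.46 to 0.69, -0.47 to -0.14, -0.51 to -0.27, -1.10 to -0.64 and 0.05 to 0.31 in the same order. The deviations of hearts with the same replicate number had correlations from -0.48 to 0.25. With 4 hearts a group these values cannot decide whether the numbers pair hearts, and no pairing was used in the main test. With a replicate block 1 gene was called with TAC in control mice (1.24% of all genes), 1 with the deletion in sham hearts (0.326%) and 1 in the mean deletion effect (0.692%), all higher. Of the values of single genes under an alternative, 530 kept direction and side of the threshold, 126 lost the threshold, 31 gained it and 0 reversed. They belong to 27 pairs of a gene and a comparison, of which 12 passed in the main test. Only values of those 12 pairs could lose the threshold. The 530 include values that passed neither in the main test nor under the alternative, so they do not measure how well the passing results held. Apart from the alternatives' own construction, the cause of these changes was not tested. The number of hearts, 4 a group, and a within-group spread of the 43 genes above that of all genes limit the precision of these values.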
